A study of Mus musculus with 3 samples.

Results

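The mRNA of mouse liver 60 min after an injection of glucagon was compared with that of liver 60 min after PBS, the vehicle. The comparison covered 4915 of the 22180 genes that had a probe set annotated with exactly 1 symbol on the array. A gene was read by its brightest probe set and was kept when the brighter of the PBS and glucagon arrays reached a log2 signal of 6. The value of each gene was the log2 signal with glucagon minus the log2 signal with PBS, so that 1 is a 2-fold higher and -1 a 0.5-fold signal.

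The study profiled livers of WT C57BL6/J mice at 6 months of age on Mouse Gene 2.0 ST arrays. The 3 groups received intraperitoneal PBS, glucagon at 50 ng/g body weight or recombinant human insulin at 0.75 U/kg body weight. RNA of several mice was mixed for each array, with 5 mice per group in the labels and 7 in the methods for the PBS and insulin pools, so there was 1 array per condition. The PBS and insulin animals were male and fasted for 19 h, whereas the sex and the feeding of the glucagon animals are stated neither in the labels nor in the methods. No spread between mice could therefore be measured, no difference below has an error or a test, and every value describes the arrays that were compared. The insulin array is cited only as a description beside glucagon, mostly for single genes and in places as a range, count or median of a gene set. Both hormones were set against the same PBS array, so likeness between them is not read as a result.

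Glucagon is the peptide hormone of pancreatic alpha cells that raises blood glucose between meals, and the liver is its main target. It binds the glucagon receptor Gcgr on hepatocytes, which acts through a stimulatory G protein on adenylyl cyclase to raise cyclic AMP and activate protein kinase A. The kinase phosphorylates enzymes of glycogen metabolism directly, and in the nucleus it phosphorylates CREB, which binds cyclic AMP response elements of genes such as Pck1, G6pc, Ppargc1a and the Nr4a receptors. Hepatocytes also secrete most plasma proteins, among them the acute phase proteins that interleukin 6 induces through STAT3 and C/EBP factors, and they hold heat shock factors that act on chaperone genes.

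The profile was that of liver. Of 12 hepatocyte markers listed, 11 were measured and all 11 were kept, with albumin (Alb) at log2 13.18 on the PBS array and 13.24 on the glucagon array. The extraction text of the labels speaks of ovarian RNA, but 0 of 11 measured ovary markers reached log2 6, and the brightest of them on any array, Inhba, stood at 4.48. Markers of exocrine pancreas, cholangiocytes, neutrophils and erythroid cells were also kept in 0 cases, though only 4 of 12 erythroid markers were measured. By contrast, 11 Kupffer cell, 10 endothelial and 6 stellate cell markers were kept. The medians of all probe sets were 3.07 on the PBS array and 3.05 on the glucagon array.

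Most genes had nearly the same signal on both arrays. The median log2 difference of the 4915 genes was 0.06, and the central 95% ran from -0.46 to 0.60. Of all these genes, 61.4% were above 0, a share that was 48.9% after quantile normalization of the arrays, so small differences of a whole group are read against the median and not against 0. The spread was wider among dim genes. Below a mean signal of log2 7 the central 95% ran from -0.49 to 0.65, and between log2 8 and 9 it ran from -0.33 to 0.55. Genes at the edge of the brightness limit were Mfsd6, at 5.99 with PBS and 6.00 with glucagon, which was kept, and Usp18, at 6.00 with PBS after rounding and 5.47 with glucagon, which fell short of the limit. A gene that reached the limit on a single array could only differ in the direction of that array. This holds for members of every list below.

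With glucagon, 20 genes were at least 2-fold higher, which is 0.407% of the genes compared, and 10 genes were at or under 0.5-fold, which is 0.203%. At a limit of 1.5-fold, 137 genes were higher (2.79%) and 56 were lower (1.14%). All 30 genes past the 2-fold limits are annotated as protein coding. The higher set was led by the chaperone Hspa1b and the nuclear receptor Nr4a1, and the lower set by Saa2, Lcn2 and Orm2, secreted proteins of the acute phase. Ablim3, an actin-binding LIM protein, was just inside the upper limit at 1.01, and the co-chaperone Dnajb1 was just outside at 0.99. At the lower limit, the sphingosine phosphate exporter Spns2 stood at -1.01 and the glutamyltransferase family member Ggt6 at -0.97.

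**Figure D1:**
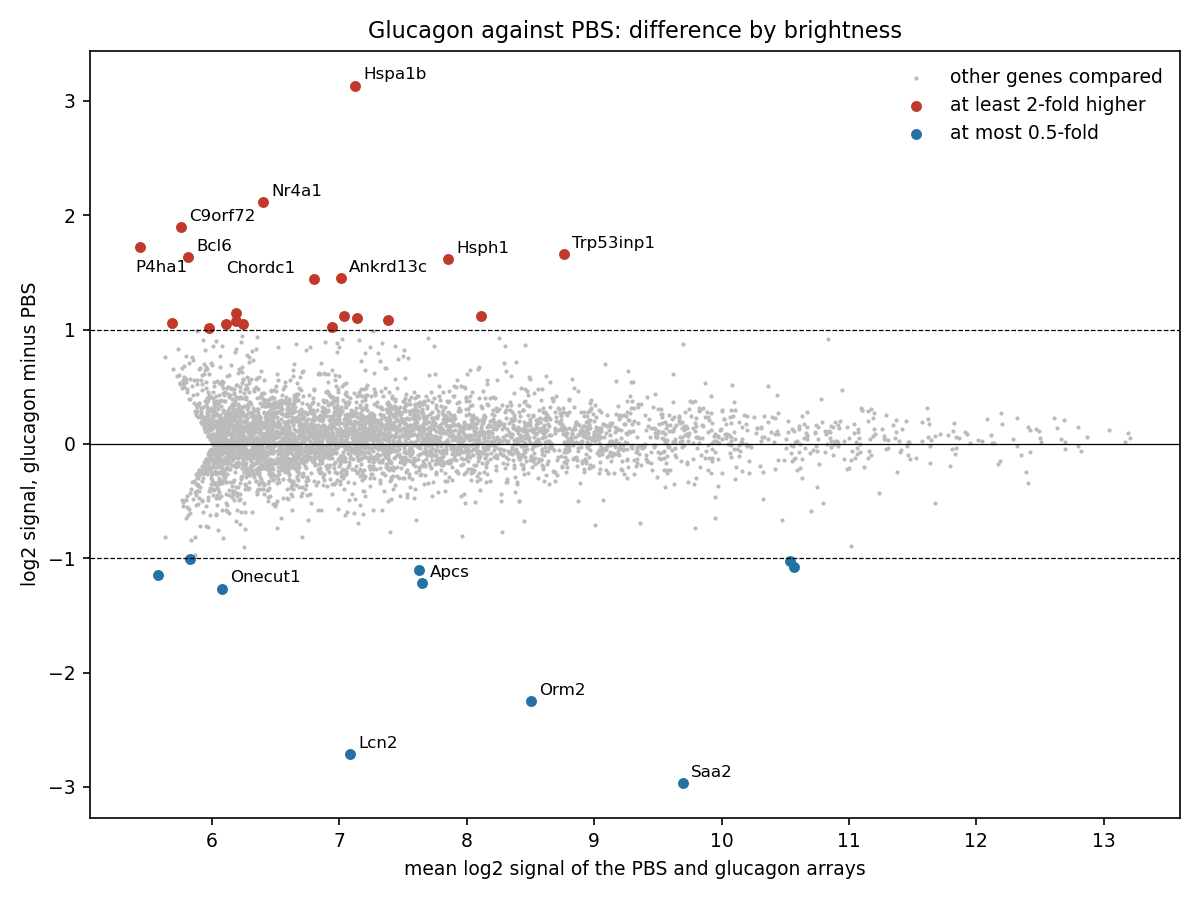
Each point is 1 of the 4915 genes. The horizontal axis is the mean log2 signal of the PBS and glucagon arrays and the vertical axis is the log2 signal with glucagon minus that with PBS, with dashed lines at the 2-fold and 0.5-fold limits. The 20 genes above and the 10 genes below the limits are coloured, and Hspa1b at 3.13 and Saa2 at -2.97 lie farthest from 0.

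Promoter sequences are shown for the genes at both ends of the profile, from 250 bases before to 50 bases after the start of the RefSeq gene on GRCm38.p6, read 5′ to 3′ along the gene. Hspa1b, Nr4a1 and Chordc1 were the genes ranked 1, 2 and 9 from the highest, and Saa2, Lcn2 and Orm2 were the 3 lowest. They were picked because they hold the marked elements, and other high genes such as C9orf72, P4ha1 and Trp53inp1 are not shown. Capitals mark matches to the paired heat shock element in Hspa1b and Chordc1 (GAANNTTC or TTCNNGAA), to the core of the cyclic AMP response element in Nr4a1 (TGACG, here on the other strand as CGTCA) and to the C/EBP element in Saa2, Lcn2 and Orm2 (TTGCNNAA on either strand).
Hspa1b, chr17:34959189-34959488, minus strand: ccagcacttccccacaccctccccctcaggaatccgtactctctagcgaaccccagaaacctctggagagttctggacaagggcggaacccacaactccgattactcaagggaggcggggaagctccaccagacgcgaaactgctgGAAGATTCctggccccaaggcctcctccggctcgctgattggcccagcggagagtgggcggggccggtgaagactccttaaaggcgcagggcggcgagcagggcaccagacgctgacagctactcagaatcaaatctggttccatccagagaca
Chordc1, chr9:18292017-18292316, plus strand: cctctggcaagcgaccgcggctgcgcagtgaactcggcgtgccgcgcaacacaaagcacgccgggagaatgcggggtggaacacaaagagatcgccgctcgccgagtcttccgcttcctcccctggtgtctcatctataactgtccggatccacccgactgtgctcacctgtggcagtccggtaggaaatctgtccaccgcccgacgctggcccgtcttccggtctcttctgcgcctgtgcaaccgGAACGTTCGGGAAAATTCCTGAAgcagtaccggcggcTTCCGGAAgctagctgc
Nr4a1, chr15:101266596-101266895, plus strand: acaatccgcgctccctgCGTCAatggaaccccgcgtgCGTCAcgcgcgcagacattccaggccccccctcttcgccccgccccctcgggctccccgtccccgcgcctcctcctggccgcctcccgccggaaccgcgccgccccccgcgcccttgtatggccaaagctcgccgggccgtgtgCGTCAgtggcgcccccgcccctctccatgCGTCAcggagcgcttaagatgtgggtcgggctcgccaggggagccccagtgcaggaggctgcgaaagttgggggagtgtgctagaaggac
Saa2, chr7:46751583-46751882, plus strand: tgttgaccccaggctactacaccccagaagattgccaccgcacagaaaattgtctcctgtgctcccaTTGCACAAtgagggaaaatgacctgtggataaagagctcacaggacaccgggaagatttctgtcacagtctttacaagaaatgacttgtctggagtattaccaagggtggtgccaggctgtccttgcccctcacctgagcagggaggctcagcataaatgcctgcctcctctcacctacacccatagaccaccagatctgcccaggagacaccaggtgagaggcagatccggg
Lcn2, chr2:32387690-32387989, minus strand: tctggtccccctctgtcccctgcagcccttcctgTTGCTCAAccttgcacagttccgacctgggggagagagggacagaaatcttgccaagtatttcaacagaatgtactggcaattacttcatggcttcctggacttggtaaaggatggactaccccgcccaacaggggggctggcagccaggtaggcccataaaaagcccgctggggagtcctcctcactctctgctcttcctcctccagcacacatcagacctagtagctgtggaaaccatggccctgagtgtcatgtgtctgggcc
Orm2, chr4:63362199-63362498, plus strand: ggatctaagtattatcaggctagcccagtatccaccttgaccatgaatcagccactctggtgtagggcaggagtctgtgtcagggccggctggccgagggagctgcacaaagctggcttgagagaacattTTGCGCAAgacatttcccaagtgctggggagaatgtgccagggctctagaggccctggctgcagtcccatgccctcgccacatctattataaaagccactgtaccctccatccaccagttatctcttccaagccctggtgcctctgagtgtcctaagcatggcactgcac
Counted from the start, the Hspa1b match began at position -104. Chordc1 held 5 overlapping or neighbouring matches between positions -4 and 34. Nr4a1 held the cyclic AMP core 4 times, at -233, -213, -69 and -40. The C/EBP match began at -183 in Saa2, at -216 in Lcn2 and at -120 in Orm2. A match is a run of letters and was not tested as a binding site.

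Chaperones of the cytosol and nucleus formed the group with the highest median. Of 22 members kept, 21 were above 0 and 1 below, with a median of 0.55 against 0.06 for all genes. At least 2-fold higher were 4 members (0.407% of all genes), and 11 were at least 1.5-fold higher (2.79% of all genes). Some members, such as Hspa1b and Dnajb1, reached the brightness limit only on the glucagon array, so these could only be above 0. Without the limit the median of all 34 measured was 0.55, and at a limit of log2 7 it was 0.62 over 14 genes. After quantile normalization 20 members were above 0.

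Hspa1b, the stress-inducible form of Hsp70, had a log2 signal of 5.56 with PBS and 8.69 with glucagon, a difference of 3.13 or 8.78-fold. On the insulin array it was at 6.89. No other gene of the 4915 lay as far above 0. Its neighbour Hspa1a, a near-identical copy, was dim on both arrays, at 1.89 with PBS and 3.66 with glucagon. The promoters of the pair share 296 of 300 bases, and whether a probe set of one copy also reads the other was not tested.

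Hsph1, a nucleotide exchange factor of the Hsp110 family, was at 7.04 with PBS and 8.66 with glucagon, a difference of 1.62. Bag3, which links Hsp70 to selective autophagy, was at 6.59 and 7.69, a difference of 1.10. Dnajb1, a J-domain protein that delivers substrates to Hsp70, was at 5.49 and 6.48. The constitutive form Hspa8 was the brightest chaperone of the list, at 10.71 and 11.18, and differed by 0.47. Hspb1, a small heat shock protein, stayed under the brightness limit at 3.78 and 5.68, with a difference of 1.89.

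Chordc1, a co-chaperone of Hsp90, was at 6.08 with PBS and 7.52 with glucagon, a difference of 1.44. The inducible Hsp90aa1 was 0.90 higher, from 5.58 to 6.49. Its helpers Stip1, which bridges Hsp70 and Hsp90, and Ahsa1, which speeds its ATPase, were higher by 0.86 and 0.74. Hsf2, a heat shock factor, was at 5.43 and 6.04. At the other end of the list Fkbp5, a co-chaperone of steroid receptors, differed by 0.05, and Hspb6 was the only member below 0, at -0.25.

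The chaperones of other compartments differed less. All 19 members listed for the cytosolic chaperonin TRiC and for mitochondria were kept. Of these, 18 were above 0 (17 after quantile normalization), with a median of 0.24. Past 1.5-fold were 0 of the 19, where all genes had 2.79% higher and 1.14% lower. The largest values were those of the mitochondrial unfoldase Clpx, 0.43, the disaggregase Clpb, 0.42, and the mitochondrial chaperonin pair Hspd1 and Hspe1, 0.41 each. In the endoplasmic reticulum, 23 of 26 members were above 0 (20 after quantile normalization), with a median of 0.27. Creld2, a secretory pathway protein induced by misfolded proteins, was at 7.55 with PBS and 8.67 with glucagon, a difference of 1.12. Herpud1, a part of the degradation machinery of that organelle, was at 10.37 and 11.30, and Hspa5, its main Hsp70, differed by 0.58. Xbp1, a transcription factor of the unfolded protein response, differed by -0.08.

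Among RefSeq promoters, the inward heat shock pair GAANNTTC occurred for 7 of the 19 chaperone genes with a promoter found, or 36.8%. It occurred for 6.92% of 3919 genes compared and in 7.86% of all 32851 promoters listed. In this and later shares, a gene counted once and matched when any of its listed promoters did, whereas the 32851 are single promoters. The outward pair TTCNNGAA occurred in 3 of these 19, or 15.8%, in 5 of 16 promoters found for TRiC and mitochondrial chaperones, or 31.2%, in 6 of 22 acute phase promoters, or 27.3%, and in 7.68% of the promoters of genes compared. The shares describe the letters in these windows only.

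**Figure D2:**
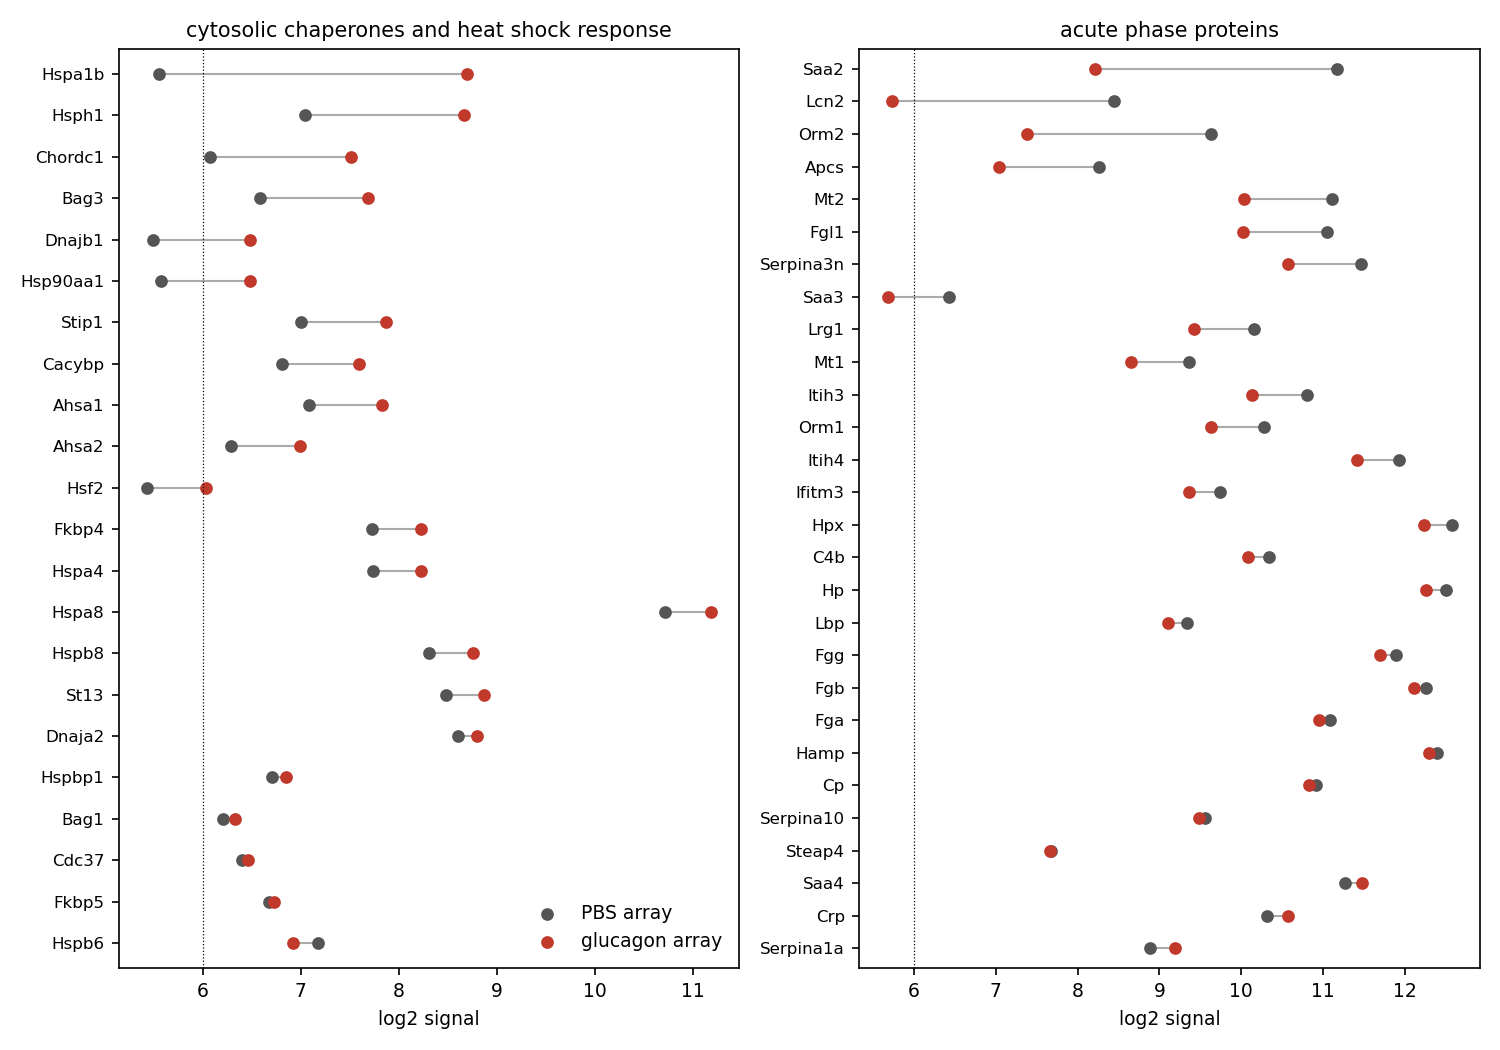
Log2 signals on the PBS array (grey) and the glucagon array (red) of the 22 cytosolic chaperone genes (left) and the 28 acute phase genes (right) that were kept, 1 gene per row, with a dotted line at log2 6. Red lies to the right of grey in 21 chaperone rows and to the left in 25 acute phase rows, with the widest gaps for Hspa1b, Saa2, Lcn2 and Orm2.

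Acute phase proteins formed the group with the lowest median among the lists for function. Of 28 members kept, 25 were below 0 and 3 above, with a median of -0.36, and the counts were the same after quantile normalization. At or under 0.5-fold were 6 members, against 0.203% of all genes, and 12 were at least 1.5-fold lower, against 1.14%. Lcn2 reached the brightness limit only on the PBS array, so it could only be below 0. Without the limit the median of all 34 measured was -0.31.

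Saa2, a serum amyloid A apolipoprotein, was at 11.18 with PBS and 8.21 with glucagon, a difference of -2.97 that leaves 0.128 of the PBS signal. Lcn2, a lipocalin that withholds iron from bacteria by binding siderophores, was at 8.44 and 5.73, a difference of -2.71. Orm2, an orosomucoid, was at 9.63 and 7.38, a difference of -2.25. On the insulin array Saa2 was at 10.59 and Lcn2 at 7.75, between the other arrays, whereas Orm2 was at 7.09, the lowest of its 3 signals. Saa and Orm genes belong to families of close copies, and whether these probe sets read several copies was not tested.

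Smaller negative differences ran through the list. Apcs, the serum amyloid P component, was at 8.26 and 7.04. Mt2 and Mt1, metallothioneins that bind zinc and copper, differed by -1.08 and -0.71. Fgl1, a fibrinogen-like liver protein, was at 11.05 and 10.03, and the protease inhibitor Serpina3n at 11.47 and 10.57. Itih3 and Itih4, heavy chains that attach to hyaluronan, differed by -0.67 and -0.52. Lrg1, a leucine-rich glycoprotein, differed by -0.74 and Saa3 by -0.75.

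Other members were close to 0. The 3 fibrinogen chains Fga, Fgb and Fgg differed by -0.14, -0.15 and -0.19, haptoglobin (Hp) by -0.24, and Hamp, the iron hormone hepcidin, by -0.10. The 3 members above 0 were Serpina1a at 0.30, the pentraxin Crp at 0.27 and the constitutive Saa4 at 0.21. The difference therefore varied widely between secreted proteins that share a name as acute phase reactants.

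Other immune groups lay below the median too. Of 34 complement and coagulation genes kept, 24 were below 0, with a median of -0.11. Past 1.5-fold were 0 of them, where all genes had 2.79% higher and 1.14% lower. The lowest were the complement subunit genes C1qc, at -0.44, and C1qb, at -0.42, and the coagulation factor F11, at -0.44. C1qc was kept only through the PBS array, so it could only be below 0. Without the brightness limit the median of all 37 complement and coagulation genes measured was -0.10. All 11 interferon response genes kept were below 0, with a median of -0.25. Some, such as Tap1 and Rtp4, reached the brightness limit only on the PBS array, so these could only be below 0. Without the limit the median of all 33 measured was -0.18, against 0.001 for all genes. At a limit of log2 7 it was -0.25 over 3 genes. Tap1, the peptide transporter of antigen presentation, was at 6.63 with PBS and 5.89 with glucagon, and Rtp4 was at 6.44 and 5.83. Of 13 genes of interleukin 6, STAT3 and NF-kB signalling, 6 were above 0, with a median of -0.02. Stat3 differed by -0.26, the receptor chain Il6ra by 0.28 and the other chain Il6st by -0.10.

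Cell type markers were read beside these groups. Of 11 Kupffer cell markers, 8 were below 0 with a median of -0.09, led by Cd5l at -0.58 and the C1q genes. C1qc, kept only through the PBS array, could only be below 0, and without the limit the median of all 14 measured was -0.08. The summed signal of the Kupffer cell markers was log2 10.69 with PBS and 10.50 with glucagon. Clec4f, a receptor specific to Kupffer cells, was at 7.50 and 7.29. Of 10 endothelial markers, 8 were below 0 with a median of -0.07, and of 6 stellate cell markers, 4 were above 0. In bulk liver, fewer cells of a type and less mRNA per cell cannot be told apart, and the part of Kupffer cells in the immune values was not tested. Lcn2 is also a product of neutrophils, whose markers S100a8 and S100a9 were at 1.98 and 2.26 with PBS and at 2.06 and 2.48 with glucagon, with 0 of 12 markers at log2 6 on either array.

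The C/EBP element occurred in 12 of 22 acute phase promoters found, or 54.5%, against 10.3% of promoters of genes compared and 10.8% of all promoters. It occurred in 5 of 8 promoters found among the genes at or under 0.5-fold and in 0 of 14 among those at least 2-fold higher. Of the 10 genes at or under 0.5-fold, 6 belong to the acute phase list, so these shares are not separate observations. The STAT element TTCNNNGAA occurred in 7 of 22 acute phase promoters, or 31.8%, against 7.58% of promoters of genes compared. Among promoters found, it occurred in 1 of 8 (12.5%) at or under 0.5-fold and in 1 of 14 (7.14%) at least 2-fold higher. The NF-kB element GGGANTTTC, rare everywhere, occurred in 0 of 22, against 0.995% of promoters of genes compared and 1.11% of all promoters.

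The receptor of glucagon and its signalling chain were measured in both livers. Gcgr was at 7.22 with PBS and 7.08 with glucagon, a difference of -0.14. Prkaca and Prkacb, the catalytic subunits of protein kinase A, differed by -0.13 and -0.14, and Adcy9, the only adenylyl cyclase bright enough to be kept, by -0.22. Of the 8 members of this list kept, 3 were above 0, with a median of -0.13. Cyclic AMP phosphodiesterases, which end the signal, were kept in 4 cases. Pde3b and Pde8a both differed by 0.21, whereas Pde2a differed by -0.39 and Pde7b by -0.57. Pde7b was kept only through the PBS array, so it could only be below 0.

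Of the transcription factors and coactivators downstream, 10 of 12 kept were above 0, with a median of 0.28. Ppargc1a, the coactivator of gluconeogenesis and mitochondrial genes, was at 6.22 with PBS and 7.10 with glucagon, a difference of 0.88. The histone acetyltransferases Ep300 and Crebbp, which bind CREB, differed by 0.54 and 0.29, and Creb1 itself by 0.27. Crtc2, the CREB coactivator that glucagon signalling releases to the nucleus, differed by -0.09. Sik1, a kinase that restrains Crtc2, was at 7.08 with PBS, 7.17 with glucagon and 8.74 with insulin.

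The known targets of cyclic AMP and CREB were divided. Of 28 measured, 14 were bright enough to be kept, and of these 10 were above 0 and 4 below, with a median of 0.24. Nr4a1, an immediate-early orphan nuclear receptor, was at 5.34 with PBS and 7.46 with glucagon, a difference of 2.12 or 4.34-fold, and it was brighter still on the insulin array at 9.48. Its relatives were under the limit on both arrays. Nr4a3 was at 2.56 and 5.56, a difference of 3.01, and Nr4a2 at 3.72 and 4.95. Among the members kept, Nr4a1 and Ppargc1a had the largest positive differences, but Nr4a1 was kept only through the glucagon array and could only be above 0.

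The other members had smaller differences. Per1, a clock gene with cyclic AMP elements, differed by 0.27, as did Tat, the tyrosine aminotransferase. Irs2, an insulin receptor substrate, differed by 0.26. Crem, which encodes a repressor of these genes, was dim at 3.54 and 4.06. Below 0 were Junb at -0.62, the phosphatase gene Dusp1 at -0.51, the binding protein gene Igfbp1 at -0.44 and G6pc at -0.23. Junb was kept only through the PBS array, so it could only be below 0. The core TGACG occurred in 9 of 13 promoters found for this list, or 69.2%, against 37.3% of promoters of genes compared and 28.6% (4 of 14) of those of genes at least 2-fold higher. The full element TGACGTCA occurred in 1 of 13, against 3.52% of promoters of genes compared. It occurred in 2 of 14 (14.3%) of those of genes at least 2-fold higher and in 1 of 8 (12.5%) of those at or under 0.5-fold.

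**Figure D3:**
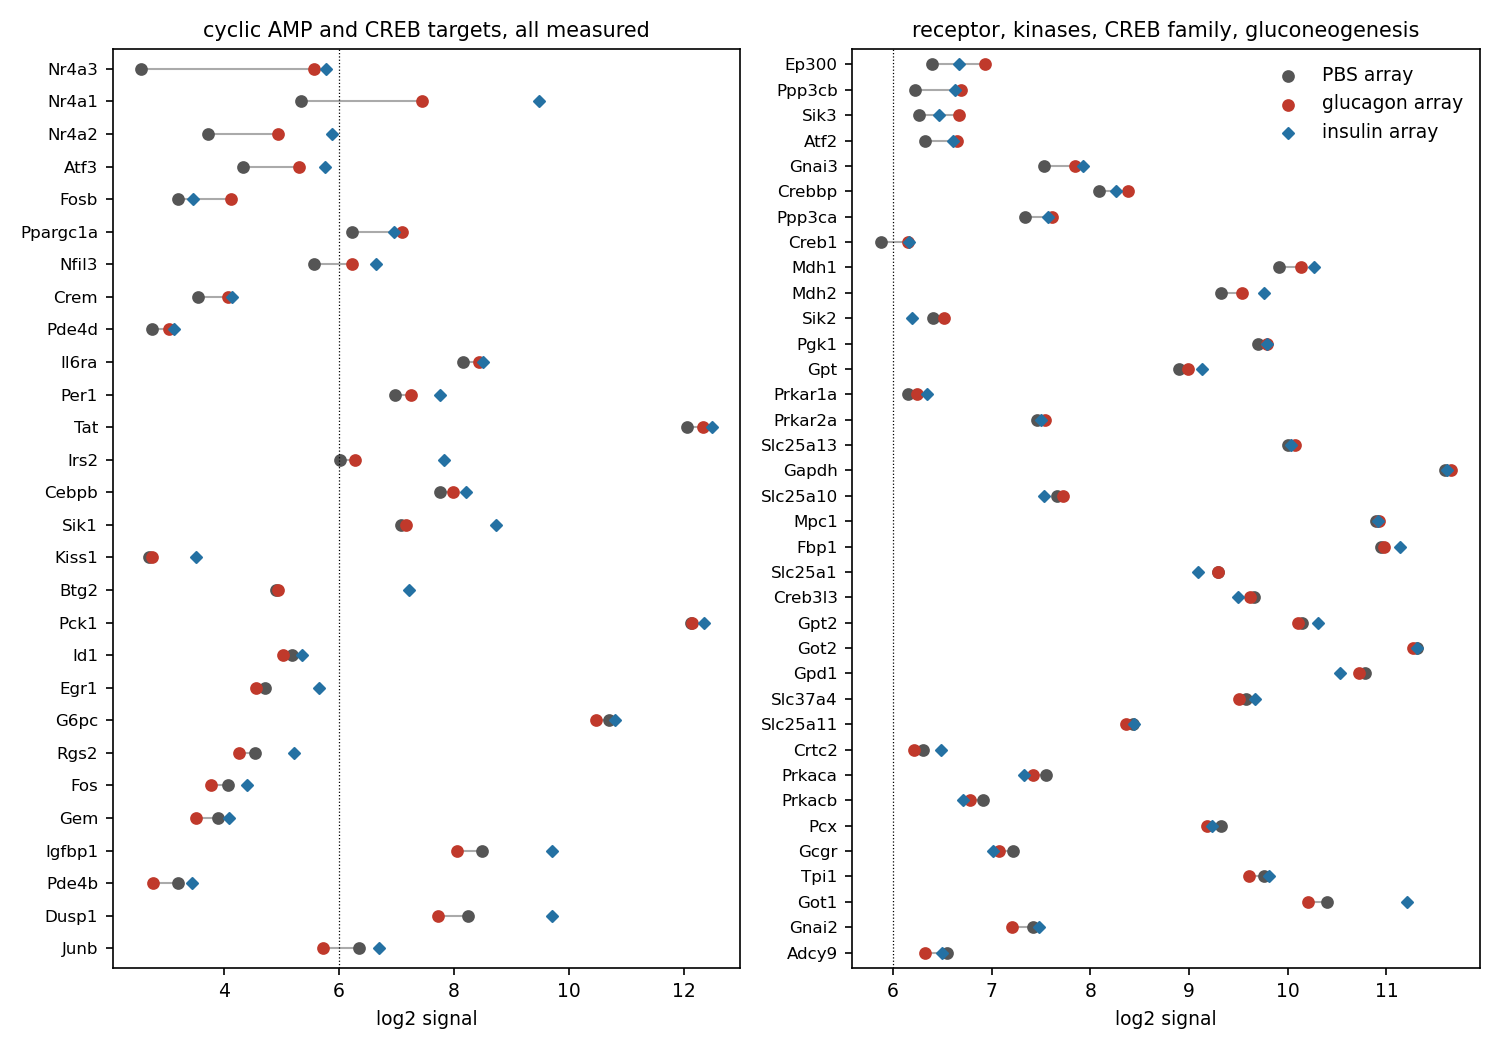
Log2 signals on the PBS (grey), glucagon (red) and insulin (blue) arrays, 1 gene per row, with a dotted line at log2 6. The left panel holds all 28 measured targets of cyclic AMP and CREB, in which Nr4a3, Nr4a1 and Nr4a2 show the widest gaps from grey to red, and the right panel holds the signalling, CREB and gluconeogenesis genes that were kept and are not in the left panel, in which red lies within 0.54 of grey in every row.

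Immediate-early genes as a class were split, with 8 of 15 kept above 0 and a median of 0.10. Nr4a1 and the stress sensor Gadd45b, at 5.72 with PBS and 6.77 with glucagon, were the members past 2-fold. Both reached the brightness limit only on the glucagon array, so these could only be above 0. Jun differed by -0.44 and Gadd45g by -0.59, and Fos and Egr1 were dim on both arrays, at 4.08 and 3.78 for Fos and at 4.72 and 4.55 for Egr1. On the insulin array Gadd45g was at 8.71 and Dusp1 at 9.70, each brighter than on both other arrays.

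The enzymes of glucose production hardly differed. Of 20 gluconeogenesis genes kept, 10 were above 0 and 10 below with a median of 0.00 (6 and 14 after quantile normalization), and their differences ran from -0.23 to 0.22. Pck1, which encodes phosphoenolpyruvate carboxykinase, was at 12.13 with PBS and 12.14 with glucagon. G6pc, the glucose-6-phosphatase catalytic subunit, was at 10.71 and 10.48, and Fbp1, fructose-bisphosphatase, at 10.95 and 10.97. Pck1 was already among the brightest genes on the PBS array. Within glycogen metabolism, Ppp1r3b, which targets a phosphatase to glycogen, was at 7.78 and 8.72, a difference of 0.93, and its other probe set gave 0.94. Gys2, the liver glycogen synthase, differed by 0.17 and Pygl, the liver phosphorylase, by 0.08.

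Amino acid metabolism showed single genes rather than a common shift. Of 36 catabolic genes kept, 17 were above 0 and the median was -0.01. Agxt, an aminotransferase of glyoxylate, differed by 0.54 and Etnppl, a phospholyase, by 0.46, whereas the histidine ammonia lyase Hal differed by -0.46 and the glycine decarboxylase Gldc by -0.33. The urea cycle enzymes Cps1, Otc, Arg1 and Asl were all within 0.09 of 0, and the ornithine carrier Slc25a15 differed by 0.52. Among transporters, Slc38a2, a carrier of small neutral amino acids, was at 9.26 with PBS and 10.13 with glucagon, and Slc16a10, an aromatic amino acid carrier, differed by 0.57. Asns, the asparagine synthetase, stood under the limit at 5.11 and 3.72, a difference of -1.39, with Trib3, another target of the integrated stress response, at 5.02 and 4.11. The list of that response showed no common shift of this size. Of its 8 genes kept, 3 were above 0 and 5 below, with a median of -0.09, and Cebpg was the highest at 0.56. Over all 28 measured the median was -0.07.

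Genes of fat oxidation and ketogenesis were above 0 in 25 of 33 cases (24 after quantile normalization), with a median of 0.11. Past 1.5-fold were 0 of the 33, where all genes had 2.79% higher and 1.14% lower. The largest were the fatty acid transporter Cd36, at 0.42, and the thioesterase Acot4, at 0.41, while the carnitine palmitoyltransferase Cpt1a was at 10.88 on both arrays. In triglyceride storage, Plin4, a lipid droplet protein, was at 5.58 and 6.44, Angptl8, a secreted inhibitor of lipoprotein lipase, at 6.50 and 7.21, and the phosphatidate phosphatase Lpin1 at 9.31 and 9.92. Cidec, which fuses lipid droplets, was at 7.11 and 6.29. In fatty acid synthesis, the regulators Srebf1, at 6.31 and 5.59, and Thrsp, at 8.37 and 7.56, were the lowest, whereas Fasn differed by 0.07 and Scd1 by 0.31. Srebf1 was kept only through the PBS array, so it could only be below 0. Cyp7a1, the rate-limiting enzyme of bile acid synthesis, was at 9.70 and 9.01, and Cyp39a1, an oxysterol hydroxylase of the same pathway, at 6.43 and 7.45.

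Clock and nuclear receptor targets held further single differences. Of 19 clock and output genes kept, 14 were above 0, with a median of 0.23. Noct, a rhythmic phosphatase, was at 6.69 with PBS and 7.60 with glucagon. Rgs16, a regulator of G protein signalling with rhythmic liver expression, was at 7.31 with PBS, 8.17 with glucagon and 4.59 with insulin. Clock, a core gene, differed by 0.01, the output factor Dbp by -0.01 and the repressor Nr1d1 by -0.29. Of 19 glucocorticoid receptor targets, 12 were above 0. Gadd45b, Zbtb16 at 0.89 and Tsc22d3 at 0.71 were the highest, and Lcn2, Mt2 and Mt1, already described, the lowest. Fkbp5, Per1 and Tat, of the same list, differed by 0.05, 0.27 and 0.27.

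Among FoxO factors and targets, 14 of 20 were above 0 (10 after quantile normalization), with a median of 0.18. Bcl6, a transcriptional repressor, was at 4.99 with PBS and 6.63 with glucagon, a difference of 1.63, and Foxo1 at 7.69 and 8.30. Bcl6 reached the brightness limit only on the glucagon array, so it could only be above 0. Angptl4, Txnip and Depp1 differed by 0.49, 0.33 and 0.22, and on the insulin array these stood at 7.31, 7.07 and 5.41, below their signals with PBS (8.60, 9.02 and 7.57). Other members went the other way with insulin. Igfbp1, the lowest of the list at -0.44, was at 8.49 with PBS and 9.71 with insulin. Bcl6 and Foxo1 were at 6.51 and 8.27 with insulin, above their signals with PBS. The median of insulin minus PBS over the 20 genes of this list was 0.11. Secreted factors of the liver were centred near 0, with a median of 0.02 over 23 genes.

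Enzymes of foreign compound metabolism lay slightly above the median of all genes. Of 21 cytochrome P450 genes and their receptors kept, 15 were above 0, with a median of 0.13. Cyp2b9 was at 7.10 and 7.92, Cyp3a11 at 8.94 and 9.58, and Cyp2b10, a target of the receptor Nr1i3, was dim at 3.89 and 4.97. Conjugating enzymes had a median of 0.20, with Gsta4, a glutathione transferase, at 0.64. Of 18 genes of the NRF2 response, 15 were above 0 with a median of 0.19. Hmox1, the inducible heme oxygenase, was at 5.65 with PBS and 6.72 with glucagon, a difference of 1.08, and at 6.00 with insulin, whereas Gclm, Txnrd1 and Srxn1 differed by 0.06, 0.09 and -0.03. Hmox1 was kept only through the glucagon array, so it could only be above 0. P450 and glutathione transferase genes come in close copies, and whether their probe sets read several of them was not tested.

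Genes of general cell functions served as background. The 24 ribosomal protein genes kept had a median of 0.00 and the 30 proteasome subunits of 0.12. Of 31 subunits of oxidative phosphorylation, 29 were above 0 with a median of 0.09, but after quantile normalization the count was 18 above and 12 below. Nucleolar factors of ribosome assembly were above 0 in 11 of 13 cases, led by Nolc1 at 0.77 and Nop58 at 0.59. Nolc1 was kept only through the glucagon array, so it could only be above 0. Without the brightness limit the median of all 23 nucleolar factors measured was 0.14. The 12 housekeeping genes kept had a median of 0.08, with Tfrc, the transferrin receptor, at 0.83 and Hprt at 0.42. Tfrc too was kept only through the glucagon array. Pericentral hepatocyte genes were above 0 in 12 of 13 cases (median 0.13) and periportal genes in 4 of 7 (median 0.00). Small nucleolar RNAs were below 0 in 37 of 50 cases, with a median of -0.13.

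**Figure D4:**
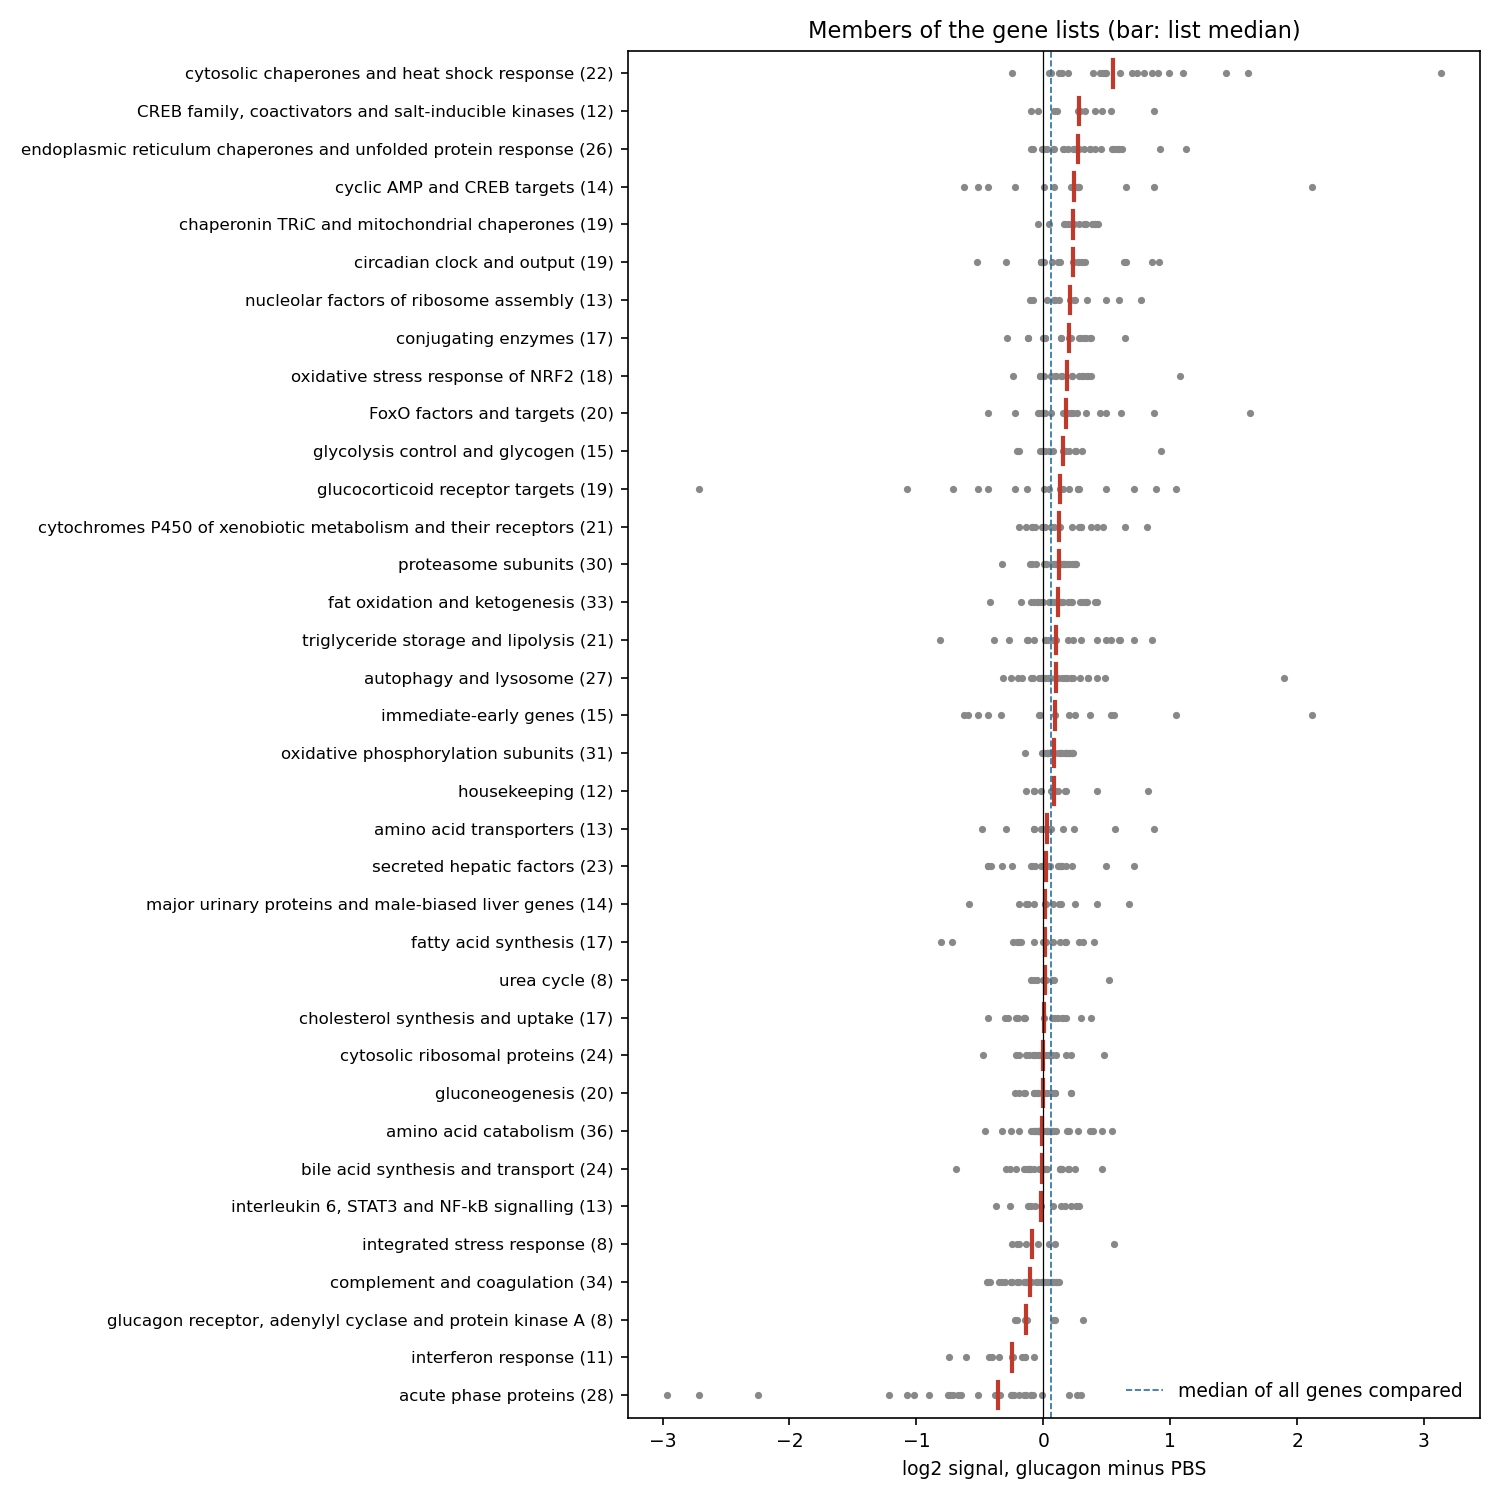
Each grey point is a kept gene of the list named on the left (number of genes in parentheses), the red bar is the median of the list, and the horizontal axis is the log2 signal with glucagon minus that with PBS. The dashed line marks the median of all 4915 genes, 0.06, and the lists run from cytosolic chaperones (median 0.55) at the top to acute phase proteins (median -0.36) at the bottom.

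Further genes of the 20 higher ones lay outside the groups described above. Trp53inp1, a stress protein that takes part in autophagy, was at 7.93 with PBS and 9.59 with glucagon, a difference of 1.66, and was the brightest of the 20 on the glucagon array. P4ha1, the catalytic subunit of collagen prolyl hydroxylase, was at 4.57 and 6.29, and Ankrd13c, an ankyrin repeat protein, at 6.29 and 7.74. C9orf72, part of a complex in membrane traffic and a member of the autophagy and lysosome list (18 of 27 above 0, median 0.10), was at 4.81 and 6.70 by its brighter probe set, a difference of 1.90. Its other probe set was at 2.43 with PBS and differed by 0.07, and the mean of both gave 0.99.

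Hexim1, which inhibits the elongation factor P-TEFb, was at 6.84 and 7.93. Impact, an inhibitor of the kinase Gcn2, was at 5.61 and 6.76, and Mbd1, which binds methylated CpG, at 6.48 and 7.59. Tra2a, a splicing regulator, differed by 1.05 and Swt1 by 1.06. Of the 20 genes, 11 were under log2 6 on the PBS array, so these were kept only through the glucagon array and could only be above 0. Likewise, 4 of the 10 lower genes were under log2 6 on the glucagon array and could only be below 0.

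The remaining lower genes were likewise of mixed function. Onecut1, a liver transcription factor also called HNF6, was at 6.71 with PBS and 5.44 with glucagon, a difference of -1.26, and at 6.68 with insulin. Slc25a25, a mitochondrial carrier of ATP and magnesium, was at 8.18 and 7.07, and at 9.07 with insulin. Fabp4, a fatty acid binding protein of adipocytes and macrophages, was at 6.15 with PBS and differed by -1.15 with glucagon, and was at 6.22 with insulin. It was the only adipocyte marker to reach log2 6: Adipoq was at 2.11 with PBS and 2.48 with glucagon, and Plin1 at 3.44 and 3.34. The next genes were the cytidine deaminase Cda at -0.90, the activin receptor Acvr1b at -0.84 and the RNA helicase Mov10 at -0.83.

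**Figure D5:**
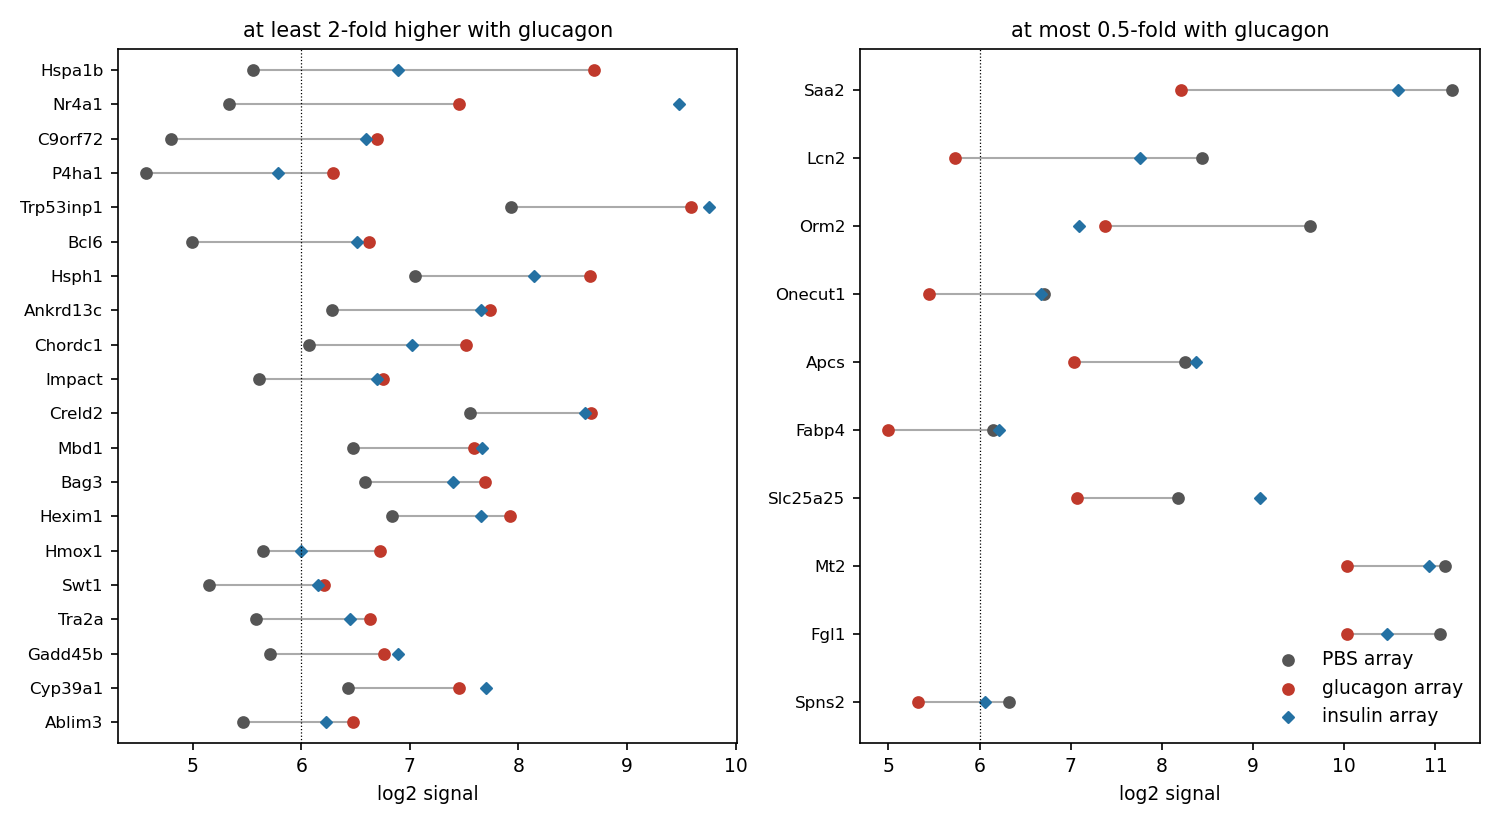
Log2 signals on the PBS (grey), glucagon (red) and insulin (blue) arrays of the 20 genes at least 2-fold higher (left) and the 10 genes at or under 0.5-fold (right) with glucagon, 1 gene per row, with a dotted line at log2 6. Blue lies within 0.5 of red in 15 rows on the left and in 2 rows on the right.

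The insulin array stood beside these genes as follows. For the 20 higher genes the log2 signal with insulin minus PBS ran from 0.35 (Hmox1) to 4.14 (Nr4a1). For the 10 lower genes it ran from -2.54 (Orm2) to 0.89 (Slc25a25). Glucagon minus insulin was 1.80 for Hspa1b, 0.52 for Hsph1 and 0.50 for Chordc1, -2.02 for Nr4a1, and -2.38 for Saa2 and -2.03 for Lcn2. The genes were chosen on both the PBS and the glucagon signal, so neither set of values is independent of that choice, and both are given as a description.

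Genes under the brightness limit are given as values only. Of 17265 such genes, 21 were at least 2-fold higher and 24 at or under 0.5-fold. Besides Nr4a3, Hspb1, Hspa1a, Nr4a2 and Cyp2b10 they included Ppp1r3g, a glycogen targeting subunit related to Ppp1r3b, at 4.26 with PBS and 5.31 with glucagon, and the drug transporter Abcb1a at 4.20 and 5.22. Near the background of an array such differences are less well measured than those of bright genes.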

How the data were processed

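The deposited values are log2 signals. The authors labelled 100 ng of pooled liver RNA for the PBS and insulin arrays and reduced the probes to probe set values by RMA (robust multichip average), using Expression Console 1.3.0 of Affymetrix. These steps are not stated separately for the glucagon array. RMA equalises the arrays, so a shift common to all genes would be lost. Of 41345 probe sets, 23521 carried exactly 1 symbol, 1820 several and 16004 none, and genes without a single-symbol probe set were not analysed here. Differences of log2 signals were computed as deposited, with Python 3.11.15, numpy 2.4.6 and pandas 2.3.3, and the code was tested on simulated data. With 1 array per condition there was no test.

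The genes, the 39 lists for function and the 14 marker lists were chosen with earlier results of these data known. Named by rule are the 15 highest and 15 lowest genes, the 4 farthest from 0 in each list, genes beside the limits and a fixed set around glucagon. Other names were chosen after their values were seen. Promoters were credited to RefSeq (GRCm38.p6) by symbol, and matched for 3919 of the 4915 genes. Alternatives varied the brightness limit, the probe set rule, the scaling and the fold limit.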

Additional observations from a re-analysis of the deposited data

Results flagged for a closer look

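Probe sets without exactly 1 symbol were not part of the comparison. Of 2036 such probe sets at log2 6 or above on the PBS or glucagon array, 37 were at least 2-fold higher and 17 were at or under 0.5-fold with glucagon. These signals are unnamed here and are given as counts only.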

How the results depend on the processing

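No paired analysis was possible because no condition was measured on more than 1 array. The count of genes at least 2-fold higher was 20. It was 41 without a brightness limit, 11 at a limit of log2 7 and 137 at a 1.5-fold limit, and 16 to 26 under the other alternatives. The count at or under 0.5-fold was 10. It was 34 without a brightness limit and 56 at a 1.5-fold limit, and 7 to 12 otherwise. Of 238 recomputed list medians, 27 had the opposite sign to the value reported, 10 of them after quantile normalization. At log2 7 the median of glucocorticoid receptor targets went from 0.13 to -0.06, of cholesterol genes from 0.01 to -0.15 and of nucleolar factors from 0.21 to 0.09. The median of cytosolic chaperones stayed between 0.50 and 0.65 and that of acute phase proteins between -0.42 and -0.31. Averaging the probe sets of a gene took C9orf72 to 0.99, Nop56 to 0.07 and Rpl7 to 0.04. The median of all genes was -0.0045 after quantile normalization and 0.09 after centring. Pooled RNA on 1 array per condition gives no error for any value, and signals near background limit what dim genes can show. Injection, batch and hybridization cannot be told apart from the hormone.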
